A study of Homo sapiens with 12 samples.

Results

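The cadherin junctions of keratinocytes were read through 10 of their genes in HaCaT, a human skin keratinocyte line that became immortal spontaneously, under repeated blue light. They were picked by gene name from 45372 gene rows: the 3 classical cadherins CDH1, CDH2 and CDH3, and the 7 desmosome genes DSG2, DSG3, DSC2, DSC3, DSP, PKP1 and JUP. Cells standing in phosphate-buffered saline received 50 J/cm² of 408 nm light from an LED at 4.6 mW/cm², 3 times weekly for at most 14 weeks, a dose the submitters set for marked toxicity. The 6 groups of 2 libraries each, lettered a and b, were blue_3 (cells after 3 irradiations) and dark_3 (their dark controls), blue_14 and dark_14 (14 irradiations), and blue_42 and dark_42 (42 irradiations). All groups were the same line, labelled wild-type, with total RNA read as 3′ tags by QuantSeq FWD chemistry. Dark controls were separate for 3, 14 and 42 irradiations, so the 3 comparisons of blue with dark shared no library. Whether the letters a and b mark separate cultures is not stated in the labels, so p-values reflect only the differences between these libraries, possibly technical ones.

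Classical cadherins are membrane proteins that bind their like on a neighbouring cell in the presence of calcium. Their tails carry p120-catenin and β-catenin or plakoglobin, and α-catenin links the complex to actin; together these form the adherens junction. E-cadherin (CDH1) and P-cadherin (CDH3) are the epidermal members, and P-cadherin is kept mainly to basal keratinocytes. N-cadherin (CDH2) is the member of neural and mesenchymal cells, and a shift of the E- to N-cadherin balance is a much used readout of epithelial-mesenchymal transition. In desmosomes the adhesive proteins are desmogleins and desmocollins. Plakoglobin (JUP) and plakophilins bind their tails, and desmoplakin (DSP) ties the plaque to keratin filaments, which gives epidermis its resistance to mechanical stress.

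Depth and identity of the libraries set how finely these genes could be read. Total counts ran from 2073160 (blue_14 b) up to 8183941 for library b of blue_42, and the smallest count of any member in any library was 87, for CDH2 in blue_14 b. All 12 markers listed for keratinocytes were detected in every library, with a summed level of 4672 to 7104 CPM (counts put on a common library size with TMM factors). Fibroblast markers summed to 4.28 to 15.2 CPM, with DPT and POSTN at 0 throughout. Neuron markers, 18 genes of which 14 to 18 were detected per library, summed to 99.0 to 281 CPM, with NEFL the largest part and TUBB3 at 0 in the 8 libraries of 3 and 14 irradiations. Glia markers, 12 genes of which 8 were tested, summed to 344 to 497 CPM. Because CDH2 is also a neural cadherin, the neuron, glia and fibroblast lists are given beside its results. NEFL made up the larger share of the neuron sum in several groups, so counts over the 17 tested neuron genes are given with the sums.

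All 10 members passed the filter on low counts and together took 0.318% to 0.406% of the reads of a library. A transcript gives about 1 tag near its 3′ end in this chemistry, so CPM can be set side by side between genes without scaling by length. Desmoplakin stood highest, at 1037 to 1375 CPM over the 12 libraries, above every value of any other member. The next were PKP1, a plakophilin of stratified epithelia, with a mean of 445 CPM, JUP with 435 CPM, DSG2 with 381 CPM and CDH3 with 375 CPM. The ranges of these 4 genes overlapped, so their order is not resolved. DSC3 followed with 229 to 315 CPM, a range that touches those of CDH3 and JUP. CDH1 (142 to 204 CPM) and DSC2 (132 to 188 CPM) lay together below it. CDH2 (41.1 to 84.8 CPM) and DSG3 (37.3 to 54.9 CPM), which also overlapped, were the lowest. P-cadherin thus gave more tags than E-cadherin, and DSG2 more than DSG3, in each of the 12 libraries. The highest library exceeded the lowest by 2.07-fold for CDH2, the widest ratio of the 10, and by 1.33-fold for DSP, the narrowest.

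**Figure D1:**
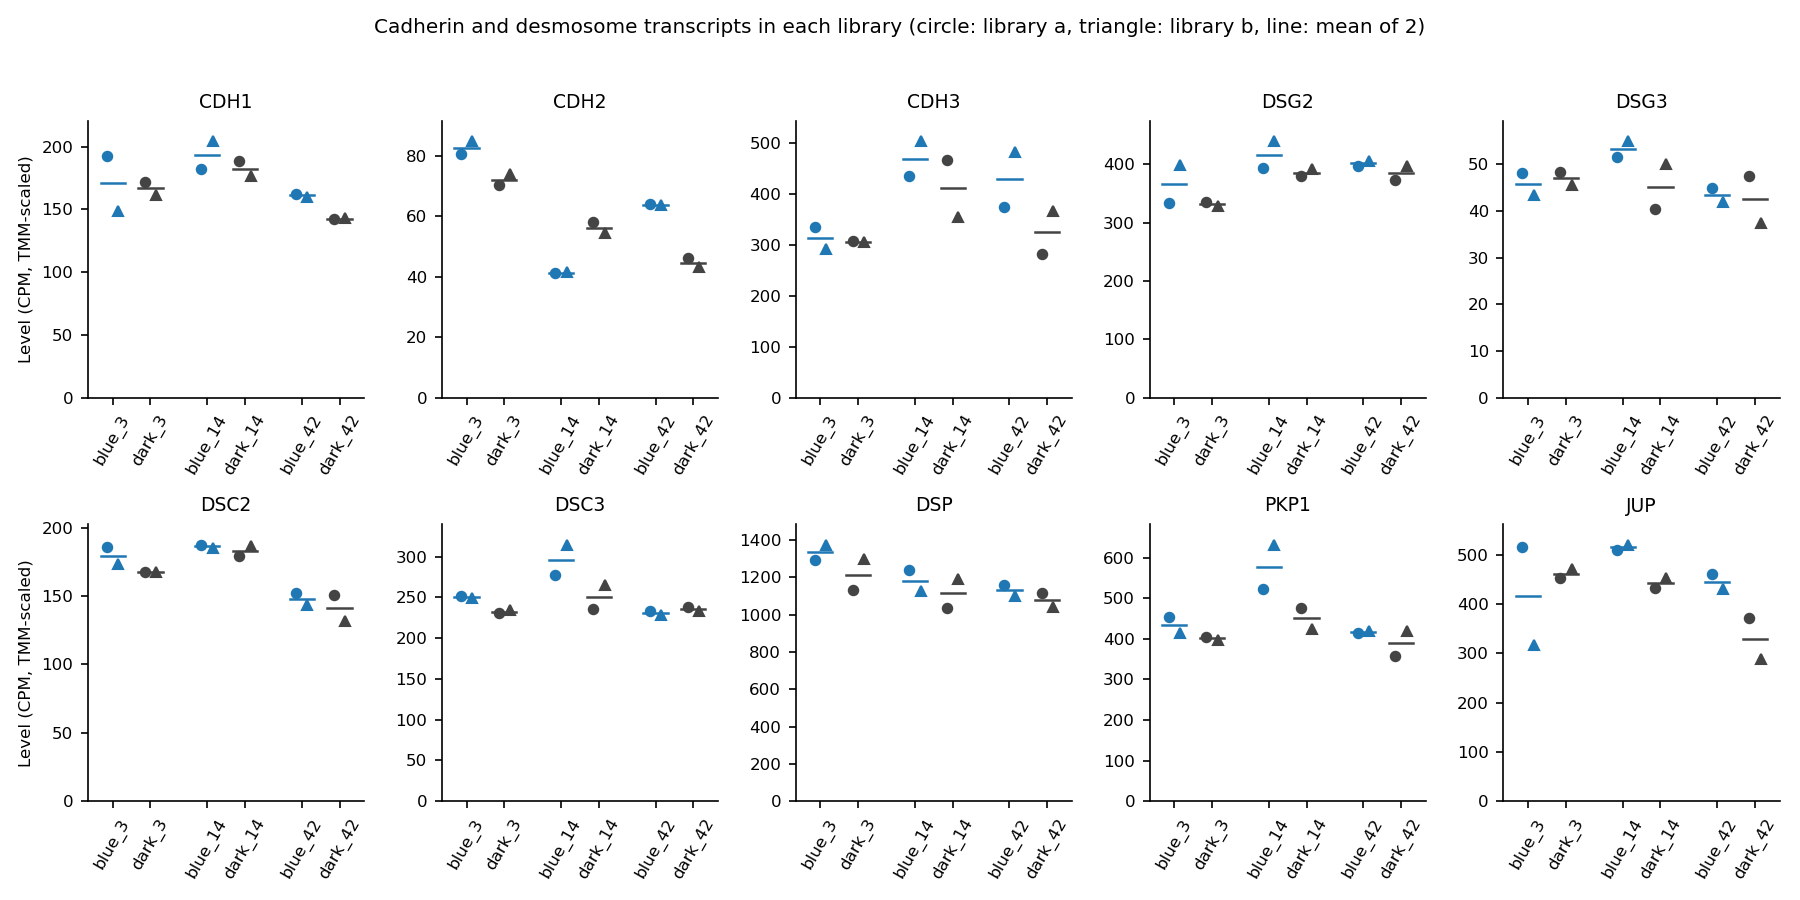
Level of each of the 10 genes (CPM, TMM-scaled, linear axes from 0) in each library, with blue groups in blue and dark groups in grey; circles are library a, triangles library b and lines the mean of 2. CDH2 spans the widest ratio, between 41.1 and 84.8 CPM, while DSP, at 1037 to 1375 CPM, spans the narrowest.

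The 10 genes lie on 5 chromosomes (GRCh38, GENCODE release 29). CDH3 (chr16:68636189-68722616) and CDH1 (chr16:68737225-68835548) are neighbours on the plus strand of chromosome 16. The 4 desmosomal cadherin genes sit within 559.0 kb of chromosome 18, with DSC3 (chr18:30990008-31042815) and DSC2 (chr18:31058840-31102522) on the minus strand and DSG3 (chr18:31447795-31478702) and DSG2 (chr18:31498043-31549008) on the plus strand. CDH2 (chr18:27950966-28177446, minus strand) is on the same chromosome outside that cluster. DSP lies at chr6:7541575-7586717, PKP1 at chr1:201283452-201332993 and JUP at chr17:41754604-41786931. Antisense or overlapping genes listed in the count table had at most 13 counts in any library, but no source used here says whether the counting used strand.

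CDH2 and DSC2, the classical cadherin and the desmocollin whose levels differed between the dark groups, each have a second, downstream start in RefSeq (GRCh38.p14). The 250 bases before these starts are shown 5′ to 3′ on the minus strand, as the stretches that fall outside the annotated exons of either gene. They lie at chr18:28036642-28036891 for CDH2 and at chr18:31101261-31101510 for DSC2. Capitals mark a TATA box (TATAAA, or TTTATA on the other strand) in the CDH2 window and GC boxes (GGGCGG, or CCGCCC) in the DSC2 window.
CDH2: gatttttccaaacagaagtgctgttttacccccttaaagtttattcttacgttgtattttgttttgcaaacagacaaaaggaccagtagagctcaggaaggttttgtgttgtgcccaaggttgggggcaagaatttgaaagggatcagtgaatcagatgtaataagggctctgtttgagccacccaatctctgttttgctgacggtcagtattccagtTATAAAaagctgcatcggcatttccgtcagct
DSC2: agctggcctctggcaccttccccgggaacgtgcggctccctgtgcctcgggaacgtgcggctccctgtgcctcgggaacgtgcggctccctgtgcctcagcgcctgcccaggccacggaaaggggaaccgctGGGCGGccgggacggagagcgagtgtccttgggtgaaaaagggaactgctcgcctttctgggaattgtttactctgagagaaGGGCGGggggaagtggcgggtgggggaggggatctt
The CDH2 window holds its TATA box 32 bases before the start and no GC box, with a GC content of 42.0%, whereas the DSC2 window holds GC boxes 118 and 36 bases before the start, with a GC content of 66.8%. Promoter windows, 11 in all, were available for 8 of the 10 genes, with none for CDH1 and CDH3. The TATA letters occurred in 1 of these 11 windows, against 10.7% of 35116 promoters of the same length, and the GC box in 7, against 42.6%. The E-box CACCTG (or CAGGTG), the letters that SNAI and ZEB repressors bind, occurred in 4 of the 11 windows, against 17.5% of all promoters. These windows belong to DSG2, DSC2, DSP and JUP, so none is of a classical cadherin. These are matches of letters only, and 3′ tags do not tell which start a transcript used.

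N-cadherin had the largest difference between blue and dark cells of the 10 members at each irradiation number, and not in the same direction. After 42 irradiations CDH2 was higher in blue cells. After 14 irradiations it was lower in both blue libraries than in both dark ones, a difference that did not pass the test over all genes, and after 3 irradiations both blue libraries were above the dark ones by a smaller margin. Set against E-cadherin, CDH2 gave 39.6 ± 0.42 tags per 100 CDH1 tags in blue_42 and 31.3 ± 1.66 in dark_42 (SD, n = 2 each).

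After 42 irradiations CDH2 stood at 63.9 and 63.7 CPM in blue_42 a and b, against 46.2 and 43.1 CPM in dark_42 a and b. Both blue libraries were above both dark ones, as for 21.3% of all tested genes, and differed little from each other. The log2 difference was 0.52 ± 0.11 (SE), a 1.43-fold higher level, with an adjusted p of 0.023 in edgeR's quasi-likelihood test. CDH2 was the 1 member called among 1.23% of all 12878 tested genes called in this comparison. The call was lost without dark_3 a, dark_3 b, dark_42 b, blue_42 a or blue_42 b, where the value was 0.48 to 0.52 and the adjusted p 0.0523 to 0.192; it was kept without each of the other 7 libraries. Neuron markers summed to 115 to 136 CPM in blue_42 and 99.0 to 138 CPM in dark_42. Fibroblast markers, with 3 genes tested, summed to 6.97 to 7.16 CPM and 6.11 to 7.30 CPM. Glia markers summed to 415.1 to 415.5 CPM and 381 to 417 CPM. The groups overlapped in each of these sums. Of the 17 tested neuron genes 10 were above 0, with a median log2 difference of 0.17 and none called. Of the 8 tested glia genes 4 were above 0, with a median of 0.12. The part of these lists in the CDH2 difference was not tested. Keratinocyte markers summed to 5491 to 5947 CPM in blue_42 and 4672 to 5207 CPM in dark_42, higher in both blue libraries, and their part was not tested. In bulk RNA, fewer cells of a type and less RNA per cell cannot be told apart.

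After 14 irradiations CDH2 stood at 41.1 and 41.5 CPM in blue_14 a and b, against 58.1 and 54.3 CPM in dark_14 a and b. The dark libraries were the higher ones and the groups did not overlap, as for 6 of the 10 members and 33.2% of all tested genes. The log2 difference was -0.44 ± 0.13, with an unadjusted p of 0.00296 and an adjusted p of 0.709 in edgeR, so it was not called. In this comparison edgeR called 0% of genes, with 5.89% at an unadjusted p under 0.05, among them 3 members, and DESeq2 called 2 genes, neither of them a member. The neuron markers moved in the same direction here, summing to 153 to 173 CPM in blue_14 and 228 to 237 CPM in dark_14, as did the fibroblast markers, at 9.77 to 11.5 CPM and 14.9 to 15.2 CPM. Of the 17 tested neuron genes 1 was above 0, and their median log2 difference was -0.50. None of the 8 tested glia genes was above 0, with a median of -0.76. The glia sums overlapped, at 441 to 480 CPM in blue_14 and 477 to 497 CPM in dark_14. The part of these lists in the CDH2 difference was not tested. The blue_14 libraries were also the 2 shallowest, and CDH2 rested on 230 counts in both together.

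After 3 irradiations CDH2 stood at 80.4 and 84.8 CPM in blue_3 a and b, against 70.2 and 73.9 CPM in dark_3 a and b. The groups did not overlap, which held for 4 of the 10 members and for 43.6% of all tested genes, and the log2 difference of 0.20 ± 0.11 had an adjusted p of 0.747 in edgeR. No member was called among 0.0155% of genes called by edgeR. None was under an unadjusted p of 0.05, against 6.92% of genes, and DESeq2 called none of the 10 either. Neuron markers summed to 244.5 to 281 CPM in blue_3 and 197.5 to 202 CPM in dark_3, and fibroblast markers to 8.21 to 9.07 CPM and 4.28 to 5.04 CPM. Without NEFL the neuron sums were 96.4 to 118 CPM in blue_3 and 51.5 to 56.0 CPM in dark_3. Of the 17 tested neuron genes 16 were above 0, with a median log2 difference of 1.47, and the 2 genes called in this comparison were both on the neuron list. Of the 8 tested glia genes 7 were above 0, with a median of 0.57. The glia sums overlapped, at 363 to 394.5 CPM in blue_3 and 344 to 366 CPM in dark_3. The part of these lists in the CDH2 values was not tested.

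**Figure D2:**
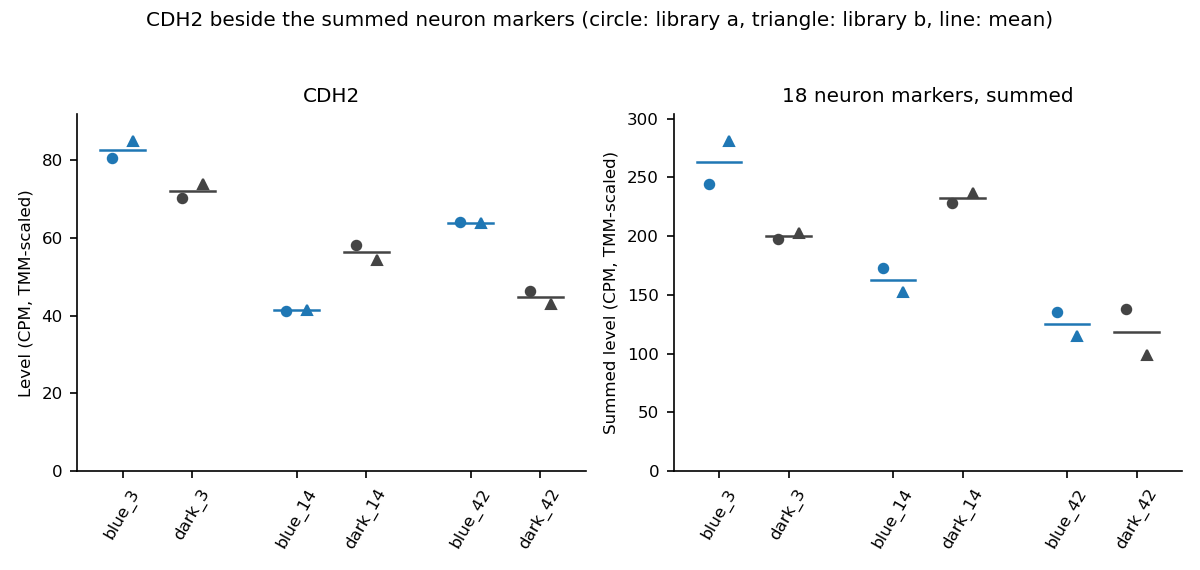
CDH2 (left) and the sum of 18 neuron markers (right), both in TMM-scaled CPM on linear axes from 0, in each library; circles are library a, triangles library b and lines the mean of 2. Blue cells lie above dark ones in both panels after 3 irradiations and below them in both after 14, while after 42 irradiations CDH2 is apart (63.7 to 63.9 against 43.1 to 46.2 CPM) and the marker sums overlap.

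The change of direction was tested as a difference between light effects. The blue against dark difference of CDH2 after 42 irradiations exceeded that after 14 by 0.95 ± 0.17 on the log2 scale, with an adjusted p of 0.0442 in edgeR. CDH2 was the member called among 0.0544% of genes called, which were 7 in all. Without dark_42 a or blue_14 a the call was kept. Without any of the other 10 libraries (dark_3 a and b, blue_3 a and b, dark_14 a and b, blue_14 b, dark_42 b, blue_42 a and b) the value was 0.91 to 1.01 and the adjusted p 0.0617 to 0.22. The effect at 42 exceeded that at 3 by 0.32 ± 0.16 (adjusted p 0.452), in a contrast where 0.435% of genes and no member were called. The effect at 14 lay below that at 3, with a difference of -0.64 ± 0.17 (adjusted p 0.198), where 0.0388% of genes were called; this last contrast was added after the data had been seen.

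P-cadherin, the most abundant of the classical cadherins here, had a higher mean in blue cells at each irradiation number, by amounts that did not pass the test. After 42 irradiations CDH3 measured 373 and 482.5 CPM in blue_42 a and b, against 282 and 367 CPM in dark_42 a and b. The groups just failed to overlap, as for 42.2% of all tested genes, and library b was above library a in both groups. The log2 difference was 0.40 ± 0.16 (adjusted p 0.254, edgeR); it was 0.20 without blue_42 b and 0.61 without dark_42 b. After 14 irradiations CDH3 measured 434 and 503 CPM in blue_14, against 467 and 355 CPM in dark_14, with overlapping groups and a difference of 0.19 ± 0.16. After 3 irradiations it measured 334.5 and 291 CPM in blue_3, against 306.5 and 304.5 CPM in dark_3, a difference of 0.035 ± 0.16 that was -0.069 without blue_3 a.

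E-cadherin was not called by light at any irradiation number. After 42 irradiations CDH1 measured 163 and 159.6 CPM in blue_42 a and b, against 142 and 143 CPM in dark_42 a and b. These groups did not overlap, yet the difference of 0.18 ± 0.12 had an adjusted p of 0.575 in edgeR, and groups failed to overlap for 6 of the 10 members and 42.2% of all tested genes in this comparison. After 14 irradiations CDH1 measured 182 and 204 CPM in blue_14, against 188 and 176 CPM in dark_14 (0.082 ± 0.12). After 3 irradiations it measured 192.5 and 149 CPM in blue_3, against 172 and 162 CPM in dark_3 (0.035 ± 0.12, and -0.16 without blue_3 a), with the dark libraries inside the span of the blue ones.

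The balance of the classical cadherins can be read within a library, without scaling between libraries. After 42 irradiations CDH2 gave 39.3 and 39.9 tags per 100 CDH1 tags in blue_42 a and b, against 32.5 and 30.1 in dark_42 a and b. After 14 irradiations it gave 22.6 and 20.3 in blue_14, against 30.9 and 30.8 in dark_14. After 3 irradiations it gave 41.8 and 57.0 in blue_3, against 40.9 and 45.7 in dark_3, where blue_3 b alone stood out and CDH1 of that library was low. The N- to E-cadherin ratio was thus separated in opposite directions after 42 and 14 irradiations and overlapped after 3. CDH3 per 100 CDH1 ran from 174 in blue_3 a to 302 in blue_42 b. It was 229.6 and 302 in blue_42, against 198 and 257 in dark_42, with overlapping groups. As a share of the 3 genes' tags, CDH2 took 10.7% of 4645 tags in blue_42 a (exact 95% binomial interval 9.78% to 11.6%) and 9.03% of 5814 in blue_42 b (8.31% to 9.80%), against 9.83% of 3673 in dark_42 a (8.88% to 10.8%) and 7.78% of 4253 in dark_42 b (7.00% to 8.63%). These intervals cover counting error only. By share the blue_42 and dark_42 groups overlapped, and in both groups library b had the higher CDH3. CDH3 itself took 55.1% of the 3 genes' tags in blue_3 a, the lowest share, and 68.4% in blue_42 b, the highest.

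**Figure D3:**
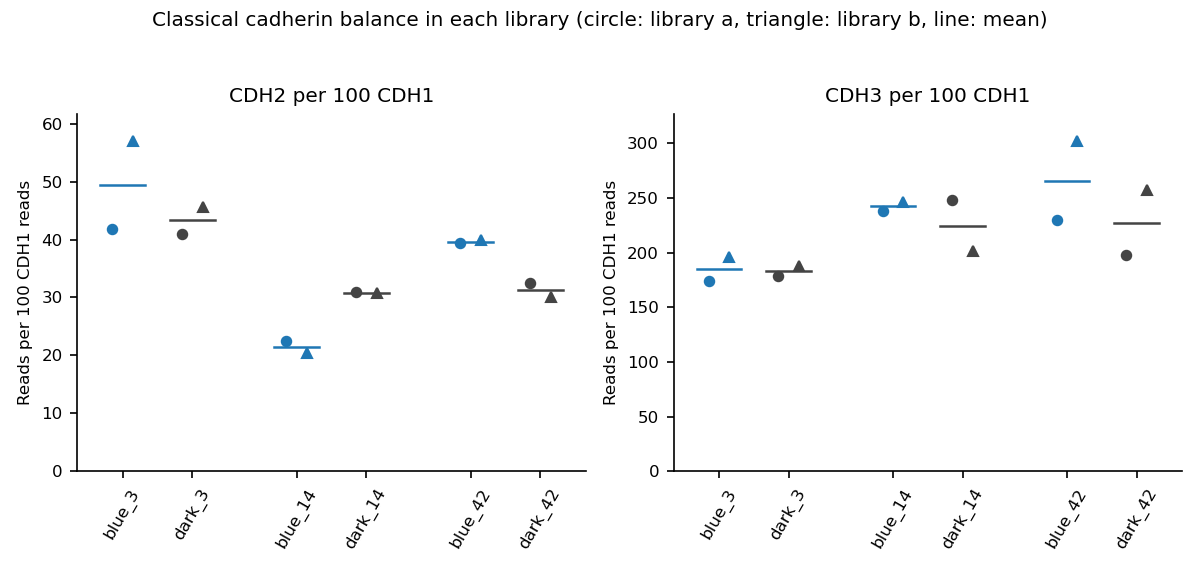
CDH2 (left) and CDH3 (right) tags per 100 CDH1 tags in each library, on linear axes from 0; circles are library a, triangles library b and lines the mean of 2. CDH2 per 100 CDH1 is 20.3 to 22.6 in blue_14 and 30.8 to 30.9 in dark_14, but 39.3 to 39.9 in blue_42 and 30.1 to 32.5 in dark_42.

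Over time in the dark, without light, N-cadherin was the classical cadherin whose lower level passed the test. CDH2 averaged 72.1 ± 2.58 CPM in dark_3, 56.2 ± 2.72 CPM in dark_14 and 44.6 ± 2.25 CPM in dark_42 (SD, n = 2 each), and no 2 of these groups overlapped. Of all tested genes 62.8% were apart in dark_14 against dark_3, 62.4% in dark_42 against dark_3 and 49.7% in dark_42 against dark_14. CDH2 fell by 0.69 ± 0.11 on the log2 scale in dark_42 against dark_3 (adjusted p 0.000284, edgeR), as the 1 member called among 17.7% of genes called. That call held without each of the 12 libraries in turn. In dark_14 against dark_3 it fell by 0.36 ± 0.11 (adjusted p 0.0396), again as the 1 member called, among 12.7% of genes. That earlier call was lost without dark_3 a, dark_3 b, dark_14 a, dark_14 b or blue_42 b (values -0.43 to -0.31, adjusted p 0.051 to 0.234), and with DESeq2 (adjusted p 0.0877). Between dark_42 and dark_14 the difference was -0.33 ± 0.12 (adjusted p 0.096). Neuron markers summed to 197.5 to 202 CPM in dark_3, 228 to 237 CPM in dark_14 and 99.0 to 138 CPM in dark_42, and without NEFL to 51.5 to 56.0, 142 to 169 and 57.4 to 65.6 CPM in that order of groups. In dark_42 against dark_3 the tested neuron genes had 7 of 17 above 0 and a median of -0.097, with NEFL itself at 56.9 ± 21.6 CPM in dark_42 and 146 ± 0.22 CPM in dark_3 (SD, n = 2 each). In dark_14 against dark_3, where CDH2 fell, 13 of the 17 were called higher, with a median of 2.48 against 0.019 over all tested genes. Fibroblast markers summed to 4.28 to 5.04 CPM in dark_3, 14.9 to 15.2 CPM in dark_14 and 6.11 to 7.30 CPM in dark_42, so the 2 later groups lay above dark_3 while CDH2 lay below it. Glia markers summed to 344 to 366 CPM in dark_3, 477 to 497 CPM in dark_14 and 381 to 417 CPM in dark_42. In dark_14 against dark_3, 6 of the 8 tested glia genes were called higher (8.11% of all genes), with a median of 2.16. In dark_42 against dark_14, 5 were called lower (5.23% of all genes) and 1 higher, with a median of -3.19. In dark_42 against dark_3, 2 were above 0 and the median was -0.36. Keratinocyte markers summed to 6470 to 6519 CPM in dark_3, 5985 to 5989 CPM in dark_14 and 4672 to 5207 CPM in dark_42, so they were lower in each later group, as was CDH2. Of these 12 genes 4 were called lower in dark_42 against dark_3 (8.26% of all genes) and none higher. Their median there was -0.089, with 4 above 0. The part of these lists in the CDH2 values was not tested.

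In the irradiated cells CDH2 was lowest at the middle point. Here too, time and irradiation number cannot be told apart from other differences between the sets. CDH2 averaged 82.6 ± 3.13 CPM in blue_3, 41.3 ± 0.32 CPM in blue_14 and 63.8 ± 0.13 CPM in blue_42, and no 2 of these groups overlapped. Of all tested genes 51.2% were apart in blue_14 against blue_3, 52.2% in blue_42 against blue_3 and 42.9% in blue_42 against blue_14. The CDH2 change in blue_14 against blue_3 was -0.9998 ± 0.13 (adjusted p 0.000138, edgeR), a call that held without each of the 12 libraries in turn, among 6.22% of genes called. In blue_42 against blue_14 it rose by 0.63 ± 0.13 (adjusted p 0.0352), among 0.241% of genes called, and in blue_42 against blue_3 it fell by 0.37 ± 0.11 (adjusted p 0.0401), among 7.78% of genes called. Each of these last 2 calls was lost without dark_3 a, dark_3 b, blue_42 a, blue_42 b or either library of the earlier blue group, with values of 0.62 to 0.64 and of -0.41 to -0.33. The call between blue_42 and blue_3 was also lost with DESeq2 (adjusted p 0.108) and without a filter on low counts (adjusted p 0.0585). Neuron markers summed to 244.5 to 281 CPM in blue_3, 153 to 173 CPM in blue_14 and 115 to 136 CPM in blue_42, and without NEFL to 96.4 to 118, 96.2 to 99.8 and 56.7 to 58.6 CPM in that order of groups. In blue_14 against blue_3 the tested neuron genes had 8 of 17 above 0 and a median of -0.094. In blue_42 against blue_14, where CDH2 rose, 4 of 17 were above 0 and the median was -0.75. In blue_42 against blue_3 there were 3 of 17 above 0 and 9 called lower (3.39% of all genes). Their median was -1.49, against -0.0012 over all tested genes. Fibroblast markers summed to 8.21 to 9.07 CPM in blue_3, 9.77 to 11.5 CPM in blue_14 and 6.97 to 7.16 CPM in blue_42, so they were highest where CDH2 was lowest. Glia markers summed to 363 to 394.5 CPM in blue_3, 441 to 480 CPM in blue_14 and 415.1 to 415.5 CPM in blue_42. Of the 8 tested glia genes 7 were above 0 in blue_14 against blue_3 (median 0.58). In blue_42 against blue_14 there was 1 (median -1.96), and in blue_42 against blue_3 there were 2 (median -1.16). The part of these lists in the CDH2 values was not tested. P-cadherin rose in blue_14 against blue_3, averaging 469 ± 48.7 CPM in blue_14 and 313 ± 30.6 CPM in blue_3, which differ by 0.58 ± 0.16 on the log2 scale (adjusted p 0.0377). That call was lost without dark_3 a, dark_3 b, blue_3 a, blue_3 b or blue_14 b, with values of 0.47 to 0.68. The CDH3 difference was 0.42 ± 0.16 in dark_14 against dark_3 (adjusted p 0.0841) and 0.45 ± 0.16 in blue_42 against blue_3 (adjusted p 0.0883), neither of them called. Both were called by edgeR without a filter on low counts, at 0.39 (adjusted p 0.0199) and 0.45 (adjusted p 0.00579). Without dark_14 b the dark difference was 0.61 (adjusted p 0.0313), and the blue difference passed at 0.45 to 0.61 without dark_42 a, dark_42 b or blue_42 a. E-cadherin was not called in any comparison over time; its largest difference was -0.35 ± 0.12 in dark_42 against dark_14 (adjusted p 0.0829), where CDH3 differed by -0.34 ± 0.16 (adjusted p 0.217). CDH1 was also lower in both dark_42 libraries than in both dark_3 ones, by a log2 difference of -0.22 ± 0.12 that was not called (adjusted p 0.2045). Both dark_42 libraries were below both dark_3 ones for 29.7% of all tested genes.

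None of the 7 desmosome genes was called between blue and dark cells at any irradiation number. After 42 irradiations the median log2 difference of the 7 was 0.064, against -0.0032 over all tested genes. After 14 it was 0.21, against -0.0068 over all genes, and after 3 it was 0.11, against 0.012. After 14 irradiations all 7 were above 0 and in 5 of them both blue libraries were above both dark ones, an arrangement found in 16.6% of all tested genes. These were DSG2, DSG3, DSC3, PKP1 and JUP, and each was highest of all 12 libraries in blue_14 b. That library was the shallowest (2073160 counts), and the members took 0.406% of its reads, the largest share. When the light effects of the 3 irradiation numbers were averaged, each of the 10 members, cadherins included, was above 0, between 0.063 for DSC2 and 0.21 for CDH3. None of these averages was called (0.0699% of genes were), by edgeR or by DESeq2, and 2 members had an unadjusted p under 0.05, against 8.29% of genes.

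**Figure D4:**
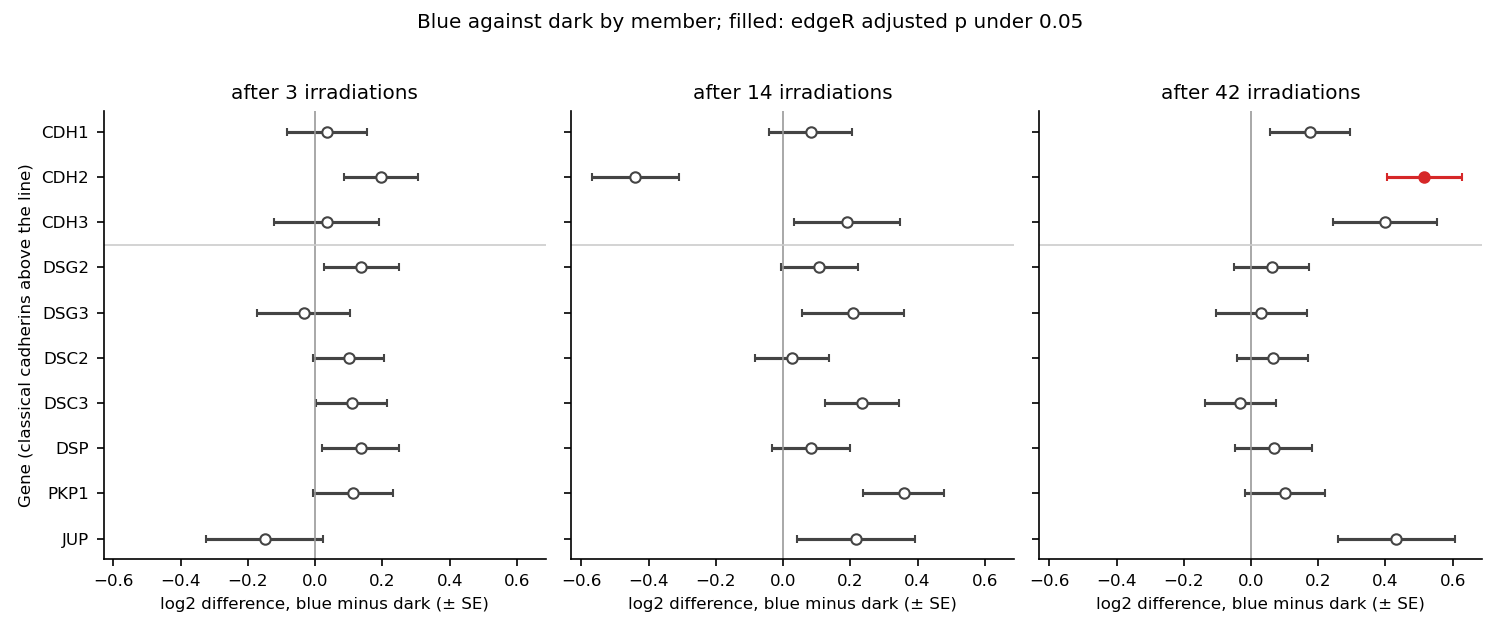
Log2 difference of blue minus dark cells for each gene, in 1 panel per irradiation number, with SE bars; a filled red point is a gene called by edgeR at an adjusted p under 0.05. The called point is CDH2 after 42 irradiations (0.52), which lies at -0.44 after 14; the 7 desmosome genes lie between -0.15 and 0.43.

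Among the desmosomal cadherins, neither desmoglein was called in any of the light or time comparisons. DSG2, the desmoglein of simple and basal epithelia, measured 398 and 405.5 CPM in blue_42 a and b, against 373 and 396.5 CPM in dark_42 a and b. DSG3, the basal epidermal desmoglein that is the antigen of pemphigus vulgaris, measured 44.8 and 41.9 CPM in blue_42, against 47.5 and 37.3 CPM in dark_42. The 2 DSG2 groups were apart by much less than the spread of dark_42, and those of DSG3 overlapped. The ratio of the 2 stayed low in every library, with 9.41 DSG3 tags per 100 DSG2 tags in dark_42 b and 14.4 in blue_3 a at its ends. After 14 irradiations DSG3 measured 51.4 and 54.9 CPM in blue_14, against 40.4 and 49.95 CPM in dark_14, with both blue libraries above both dark ones (0.21 ± 0.15, adjusted p 0.886). DSG2 was above dark_3 in both libraries of dark_14 (0.22 ± 0.11, adjusted p 0.220) and of dark_42 (0.21 ± 0.11, adjusted p 0.201). Both libraries were above dark_3 for 32.9% of all tested genes in dark_14 and 32.7% in dark_42.

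The desmocollins showed the 1 call among desmosome genes in the dark. DSC2, the widely expressed desmocollin, measured 151 and 132 CPM in dark_42 a and b, against 179 and 186.5 CPM in dark_14 a and b. Both libraries of dark_42 were lower, as for 24.9% of all tested genes. DSC2 fell by 0.37 ± 0.11 on the log2 scale (adjusted p 0.0388, edgeR), in a comparison where 7.04% of all genes were called. This call was lost without dark_3 a, dark_3 b, dark_14 a, dark_14 b, dark_42 b, blue_42 a or blue_42 b, with values of -0.40 to -0.28. It was also lost without a filter on low counts (adjusted p 0.0693), where JUP was called instead (-0.40, adjusted p 0.0226). All 10 members had a difference below 0 in this comparison, with a median of -0.27 against 0.013 over all tested genes. By light the DSC2 groups overlapped after 42 irradiations, with 152 and 143 CPM in blue_42 a and b. DSC3, the desmocollin of basal keratinocytes, measured 233 and 229 CPM in blue_42, against 238 and 234 CPM in dark_42, the 1 member with a difference below 0 (-0.031 ± 0.11). After 14 irradiations DSC3 measured 277 and 315 CPM in blue_14, against 236 and 265 CPM in dark_14, with a difference of 0.23 ± 0.11 (adjusted p 0.834). DSC3 gave 132 to 177 tags per 100 DSC2 tags over the 12 libraries, so the basal desmocollin gave more tags in each of them.

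Of the plaque genes, plakophilin-1 was the one that stood out at 14 irradiations. PKP1, whose loss causes skin fragility in patients, measured 523 and 632 CPM in blue_14 a and b, against 477 and 424 CPM in dark_14 a and b. The blue libraries were the 2 highest of all 12, and the higher of them, blue_14 b, was also the shallowest library. The log2 difference of 0.36 ± 0.12 was not called (adjusted p 0.767, edgeR), and it ran from 0.22 without blue_14 b to 0.49 without blue_14 a. Against blue_3, at 454 and 415 CPM, PKP1 rose by 0.41 ± 0.12 in blue_14 (adjusted p 0.0473), and with CDH2 and CDH3 it made 3 members called there, among 6.22% of all genes. This call was lost without 8 of the 12 libraries, which were dark_3 a, dark_3 b, blue_3 a, blue_3 b, dark_14 a, blue_14 b, blue_42 a and blue_42 b, with values of 0.27 to 0.48. In blue_42 PKP1 measured 415 and 419.7 CPM, against 358 and 419.6 CPM in dark_42 (0.10 ± 0.12, and -0.011 without dark_42 a). Its difference between blue_42 and blue_14 was -0.47 ± 0.12 (adjusted p 0.102), and without blue_14 a it was -0.60 (adjusted p 0.0266).

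Plakoglobin, the armadillo protein shared by adherens junctions and desmosomes, had the widest gap of any member between the libraries of 1 group, in blue_3. JUP measured 461 and 430.5 CPM in blue_42 a and b, against 372 and 289 CPM in dark_42 a and b. Both blue libraries were higher, as for 21.3% of all tested genes. The log2 difference of JUP was 0.43 ± 0.17 (adjusted p 0.284, edgeR) and ran from 0.27 without dark_42 b to 0.62 without dark_42 a. After 14 irradiations it measured 509 and 521 CPM in blue_14, against 432 and 453.5 CPM in dark_14. After 3 irradiations the blue libraries disagreed, at 515 and 316 CPM in blue_3 a and b, against 453 and 470 CPM in dark_3 a and b, so the sign of the difference (-0.15 ± 0.17) turned to 0.16 without blue_3 b. The difference in light effect between 42 and 3 irradiations, 0.58 ± 0.25 (adjusted p 0.386), dropped to 0.27 when blue_3 b was left out and was 0.98 (adjusted p 0.0145) when blue_3 a was left out. In the dark cells JUP was lower in dark_42 than in dark_3, at -0.48 ± 0.17 (adjusted p 0.0695). That difference passed the threshold without blue_3 a or blue_3 b (adjusted p 0.0097) and without dark_42 a (-0.69, adjusted p 0.0277), and with DESeq2 (adjusted p 0.037). Desmoplakin, by contrast, measured 1156 and 1102 CPM in blue_42, against 1114 and 1041 CPM in dark_42, and was not called in any comparison.

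The other genes of these junctions were read from lists of non-members. After 42 irradiations 1 of 14 catenin and adherens plaque genes was called, and it was higher in blue cells. This was ACTN4, an α-actinin that crosslinks actin, at 352 ± 15.5 CPM in blue_42 and 243 ± 32.6 CPM in dark_42 (SD, n = 2 each). The ACTN4 difference was 0.53 ± 0.13 on the log2 scale (adjusted p 0.0399, edgeR). The catenins that bind the classical cadherins were not called: CTNNB1 differed by 0.10 ± 0.12, CTNND1 by 0.12 ± 0.11 and CTNNA1 by -0.23 ± 0.10. Of 11 tested genes among other cadherin superfamily members, FAT2, a large atypical cadherin of keratinocytes, was called, at 37.3 ± 1.92 CPM in blue_42 and 22.9 ± 0.39 CPM in dark_42 (0.70 ± 0.15, adjusted p 0.0197). None of 6 tested further desmosome genes was called by light at 42; PERP, a desmosomal membrane protein and p53 target, differed by 0.29 ± 0.11 (adjusted p 0.248) and the plakophilin PKP3 by 0.07 ± 0.12. DSG1 and DSC1, the desmosomal cadherins of the upper epidermis, had at most 5 counts in any group and were not tested.

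In dark_42 against dark_3 the 6 tested further desmosome genes were all below 0, and 3 of them were called lower, against 8.26% of all tested genes: PERP (-0.34 ± 0.11), the cornified envelope linker PPL (-0.33 ± 0.11) and DSG4, which had 3 counts in dark_42 and 36 in dark_3. Of the adherens plaque genes in that comparison ACTN4 fell by 0.73 ± 0.13, while VCL (vinculin, which binds α-catenin under tension) rose by 0.39 ± 0.11. AFDN (afadin, which joins nectins to actin) rose by 0.46 ± 0.12 and NECTIN4 by 0.54 ± 0.12. Of the other cadherin superfamily genes, the protocadherin PCDH7 rose by 0.47 ± 0.13, and CDH5, the endothelial cadherin, had 38 counts in dark_42 and 6 in dark_3 (2.38 ± 0.65, called higher).

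The list of regulators and mesenchymal genes that accompany a rise of N-cadherin in epithelial-mesenchymal transition had no gene called by light at any irradiation number, with 8 of its 10 genes tested. SNAI2 averaged 12.7 ± 2.68 CPM in blue_42 and 13.9 ± 4.41 CPM in dark_42. VIM, the intermediate filament of mesenchymal cells, had 4 counts in blue_42 and 4 in dark_42. ZEB1 had 5 counts in blue_42 and 7 in dark_42, and SNAI1 had 0 in blue_42 and 1 in dark_42; neither was tested. FN1, the fibronectin gene, averaged 106 ± 27.9 CPM in blue_42 and 49.6 ± 14.8 CPM in dark_42, a difference of 1.10 ± 0.32 that was not called (adjusted p 0.174, edgeR). In dark_42 against dark_3, where CDH2 fell, 2 of the 8 were called higher, against 9.47% of all tested genes. They were SPARC, a matrix glycoprotein (0.94 ± 0.17), and TWIST1, a transcription factor with 23 counts in dark_42 and 3 in dark_3. In dark_14 against dark_3, where CDH2 also fell, 4 were called higher (8.11% of all genes) and 7 were above 0, with a median of 0.67. In dark_42 against dark_14, 3 were called lower (5.23% of all genes), with a median of -0.20. Of 10 genes for regulators of the epithelial state none was called by light at 42. None of 6 genes for cadherin shedding and turnover, among them the sheddase ADAM10, was called by light at 42 or in dark_42 against dark_3.

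The members were not all alike across the 12 libraries, which fall into 6 groups that share treatments and depth, so the following correlations are a description. Between members, Pearson's r of log2 CPM was highest for DSC3 with PKP1 (0.84) and CDH1 with JUP (0.82). It was lowest for CDH2 with DSG2 (-0.57), and CDH2 with CDH1 stood at -0.076. Among all tested genes of at least 10 CPM, those most like CDH1 were ST14, which encodes the membrane protease matriptase (0.96), MBD6 (0.96) and ISOC1 (0.95). The 3 most like CDH2 were NDUFA5 (0.92), NALCN, a sodium leak channel (0.92), and ZRSR2 (0.92). Most like CDH3 were NDRG1 (0.95), TSPAN15 (0.94) and ETHE1 (0.94). For DSG3 they were NIF3L1 (0.86), ZNF664 (0.86) and TEX264 (0.86).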

How the data were processed

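Read counts per gene were measured in 12 libraries, 2 in each of 6 groups taken from the sample titles. The deposited table holds whole-number counts, not normalized, which the authors made with STAR and featureCounts on GRCh38, per the submitters' processing notes. The sources used here do not give versions, strand setting or annotation release. Replicates were not pooled. Chi-square tests of their counts gave 1.64 to 8.58 per degree of freedom within groups, above sampling noise, so libraries counted singly.

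The filter filterByExpr (minimum count 10) left 12878 of 45372 rows. Libraries were scaled by TMM, and 1 quasi-likelihood model with 6 group means and robust estimation (6 residual degrees of freedom) was fitted in edgeR 4.0.16 with limma 3.58.1 in R 4.3.3. Tests were two-sided, with Benjamini-Hochberg adjustment over all tested genes within a comparison, with calls at adjusted p under 0.05. SE on the log2 scale come from the test statistic. Correlations used log2 CPM with a prior count of 2. Positions came from GENCODE 29, promoters and their starts from RefSeq on GRCh38.p14. The scripts were tested on simulated data.

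The members and all lists were chosen with earlier results of these data known. All 10 members were named whatever their values. From the other lists the rule took up to 4 called genes per direction in blue against dark after 42, their average and dark_42 against dark_3, and 8 genes whatever their values; DSG1, DSC1, SNAI1, FN1 and ADAM10 were named after their values were seen. A gene that met this rule is not reported here. Alternatives were RLE scaling, DESeq2 1.42.0, no filter, the library letter as a block and leaving out each library.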

Additional observations from a re-analysis of the deposited data

Results flagged for a closer look

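The blue against dark difference of CDH2 had opposite signs after 42 and after 14 irradiations. It was 0.52 ± 0.11 on the log2 scale after 42 and -0.44 ± 0.13 after 14, where it was not called (adjusted p 0.709, edgeR). The test of the difference between these effects gave 0.95 ± 0.17 with an adjusted p of 0.0442 in edgeR. This call was kept without dark_42 a or blue_14 a and lost without any other library. It was also lost with the library letter as a block (adjusted p 0.0598, edgeR). CDH2 rested on 230 counts in the 2 blue_14 libraries together. Both blue libraries were above both dark ones after 42 irradiations and below both after 14. The neuron markers summed to 115 to 136 CPM in blue_42 and 99.0 to 138 CPM in dark_42, and to 153 to 173 CPM in blue_14 and 228 to 237 CPM in dark_14. Of the 17 tested neuron genes 10 were above 0 after 42 irradiations and 1 after 14. Of the 8 tested glia genes 4 were above 0 after 42 irradiations and 0 after 14. Fibroblast markers summed to 6.97 to 7.16 CPM in blue_42 and 6.11 to 7.30 CPM in dark_42, and to 9.77 to 11.5 CPM in blue_14 and 14.9 to 15.2 CPM in dark_14. The part of these lists in the difference was not tested.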

How the results depend on the processing

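Over 130 member values, RLE scaling changed no call and no sign, DESeq2 changed no sign, and without a filter 2 signs changed and values moved by at most 0.039 on the log2 scale. The 2 calls that held under each alternative and each left-out library were those of CDH2 in dark_42 against dark_3 and in blue_14 against blue_3. The number of members called changed as follows. Without a filter it was 3 for blue against dark after 42 irradiations (CDH2, CDH3 and JUP), 1 for the effect at 42 minus that at 3, 2 for dark_14 against dark_3, 2 for dark_42 against dark_3 and 2 for blue_42 against blue_14. With DESeq2 it was 0 for dark_14 against dark_3 and for blue_42 against blue_3, and 2 for dark_42 against dark_3 and for blue_42 against blue_14. With the replicate block it was 0 for the effect at 42 minus that at 14 (CDH2 0.96, adjusted p 0.0598) and for blue_42 against blue_14 (CDH2 0.63, adjusted p 0.0526), and 2 for both blue_14 against blue_3 (without PKP1, adjusted p 0.0619) and dark_42 against dark_3 (with JUP). In dark_42 against dark_14 the count without a filter was still 1, but with JUP in place of DSC2. The same held in blue_42 against blue_3, with CDH3 in place of CDH2. Without the 14-irradiation libraries, a choice made after seeing the data, it was 2 for blue_42 against blue_3. Leaving out 1 library at a time gave 0 to 1 members for blue against dark after 42, for the effect at 42 minus those at 3 and at 14, for dark_14 against dark_3 and for blue_42 against blue_14, 1 to 2 for dark_42 against dark_3, 0 to 2 for dark_42 against dark_14 and for blue_42 against blue_3, and 1 to 3 for blue_14 against blue_3. With 1 library left out, signs turned for 37 of the 130 member values, none of them called and none above 0.31 in size. Among the 44 values reported singly these were 4, which ran from -0.16 to 0.21 for CDH1, from -0.069 to 0.13 for CDH3 and from -0.55 to 0.16 for JUP after 3 irradiations, and from -0.011 to 0.23 for PKP1 after 42. The letters a and b could not be taken to pair the libraries: the labels do not say so, and the b minus a differences of 8689 genes correlated between blue and dark at 0.092 (3 irradiations), -0.29 (14) and 0.41 (42). Over all genes, blue against dark after 42 gave 158 calls, 420 without a filter, 179 with DESeq2, 169 with the block and 22 to 217 with 1 library left out; after 3 irradiations it gave 2 calls, 54 without a filter, 1 with DESeq2 and 0 with the block, and after 14 it gave 0 calls, 14 without a filter and 2 with DESeq2. The average effect gave 9 calls, 87 without a filter, 21 with DESeq2 and 4 with the block. The effect at 42 minus that at 3 gave 56 calls, 288 without a filter, 84 with DESeq2 and 92 with the block, and the effect at 42 minus that at 14 gave 7, 80, 25 and 6 under the same settings. The effect at 14 minus that at 3 gave 5 calls, 115 without a filter and 15 with DESeq2; blue_42 against blue_14 gave 31, 298 and 61, and blue_14 against blue_3 gave 801, 1348 and 750. DESeq2 gave 615 calls for blue_42 against blue_3, where edgeR gave 1002. The cause of these differences was not tested. Depth is least for CDH2 and DSG3, with 87 and 115 counts in blue_14 b.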
